A study of Mus musculus with 15 samples.

Results

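This account covers the B and T lymphocyte genes measured in preparations of mouse neutrophils, which are lineage genes of B, T and NK cells. The members were the 9 genes Cd79a, Cd79b, Ms4a1, Cd3d, Cd3e, Cd3g, Lck, Nkg7 and Gzmb, taken with every array probe whose present or former symbol matched. Of these, 7 had a probe, 8 probes in all, among 11075 genes named here. For Lck and Gzmb the probe annotation used here listed none, and they were not analysed here. RNA was hybridized to Illumina Mouse Ref-8 v2 bead arrays, and all 3 populations were Ly6G+ cells of BALB/c mice. TAN, tumor-associated neutrophils, came from flank tumors of AB12, a mouse mesothelioma cell line, at 250 to 300 mm3 and 12 to 15 days after injection (4 arrays). G-MDSC, granulocytic myeloid-derived suppressor cells, came from the spleens of mice with AB12 flank tumors of 500 to 700 mm3 at 21 to 25 days (4 arrays). NN, naïve neutrophils, came from the bone marrow of mice without tumors (7 arrays). The 2 tumor groups therefore differed in organ and in tumor stage, and no spleen or tissue neutrophils of tumor-free mice were included. Every sample was a pool of RNA from 2 to 4 mice. According to the methods, spleens and tumors were digested and passed through magnetic beads and a Ly6G sort. Flushed marrow went through a Percoll density gradient, whereas the labels name beads and sorting for every population. In their part on spleens and tumors, the methods give a minimum share of neutrophils, short of all cells, that every sample exceeded. They give no share for single arrays.

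B cells recognize antigen through a surface immunoglobulin, which signals by way of the membrane proteins encoded by Cd79a and Cd79b. B cells arise in the bone marrow, where their precursors pair the immunoglobulin heavy chain with a surrogate light chain made of VpreB and lambda5. T cells carry an antigen receptor that reaches the surface only with the CD3 gamma, delta and epsilon chains, encoded by Cd3g, Cd3d and Cd3e. NK cells and cytotoxic T cells kill with granules that hold perforin and granzymes. The spleen is rich in mature B and T cells. The labels name CD11b beads and a Ly6G sort for all cells, the methods for spleen and tumor alone. Neither protein is encoded by a member gene, while Itgam, the gene of CD11b, is among the neutrophil genes counted below. In bulk RNA, fewer cells of a type and less RNA per cell cannot be told apart.

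Values are log2 signals after background correction and quantile normalization, and a level on this scale was compared between arrays for 1 probe at a time. A probe counted as above background where its signal passed the 95th percentile of the 9375 probes missing from the authors' normalized table, which was 6.49 on average. The words rose and fell are kept for genes with an adjusted p under 0.05 in limma, a linear model fitted to all 15 arrays and corrected over all kept probes by Benjamini-Hochberg. Where an array is said to be left out, these words refer to the same fit without that array. Of 12 listed neutrophil genes 11 were measured, without Ly6g. All 11 were above background on every G-MDSC and NN array, and 10 to 11 were on the TAN arrays. Their mean log2 signal was 11.62 to 12.47 in TAN, 13.87 to 14.13 in G-MDSC and 14.46 to 14.61 in NN. In TAN compared with NN, 9 of the 11 fell and none rose, against 26.2% and 36.8% of all named genes. The mean log2 signal of 12 macrophage list entries was 10.93 to 12.58 in TAN, 8.95 to 9.42 in G-MDSC and 8.84 to 9.58 in NN. Adgre1 entered this mean under both its old and its present symbol. That of 6 red cell genes was 7.04 to 7.53 in TAN, 7.44 to 8.27 in G-MDSC and 12.44 to 12.78 in NN. The populations thus differed too in genes listed for other cell types. Whether that RNA came from such cells or from the neutrophils was not tested, nor was its part in the lymphocyte results. The arrays also fell into a pair of background levels, with a median background signal of 105 or more on all G-MDSC arrays, NN 6 and NN 7, and of 94.3 or less on all TAN arrays and NN 1 to NN 5. No level held both TAN and G-MDSC. TAN 3 and G-MDSC 1 received the lowest weights when limma weighted the arrays by their fit (0.0819 and 0.236). Most results that turn on them are given with and without them. G-MDSC 1 is extreme for most of the lymphocyte genes themselves, so that calls without it describe the arrays that remain.

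A single array, G-MDSC 1, stood apart from its population in the lymphocyte genes. Its signals exceeded the mean of the other G-MDSC arrays by more than 2-fold for 6 of the 7 measured genes, all but Cd3d, against 3.81% of all named genes (422 of 11075). It also exceeded that mean by over 2-fold for 2 of 4 mast cell and basophil genes and 2 of 5 eosinophil genes. The same held for 3 of 8 genes of plasmacytoid and other dendritic cells, so the excess was not confined to lymphocyte genes. None of the macrophage, red cell, platelet or neutrophil genes listed did so. This is a description with no test. Ranked by that difference among the 11075 genes, Cd79a stood at 3, Cd3g at 9, Cd3e at 11, Cd79b at 17, Nkg7 at 26 and Ms4a1 at 244, whereas Cd3d stood at 7342.

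**Figure D1:**
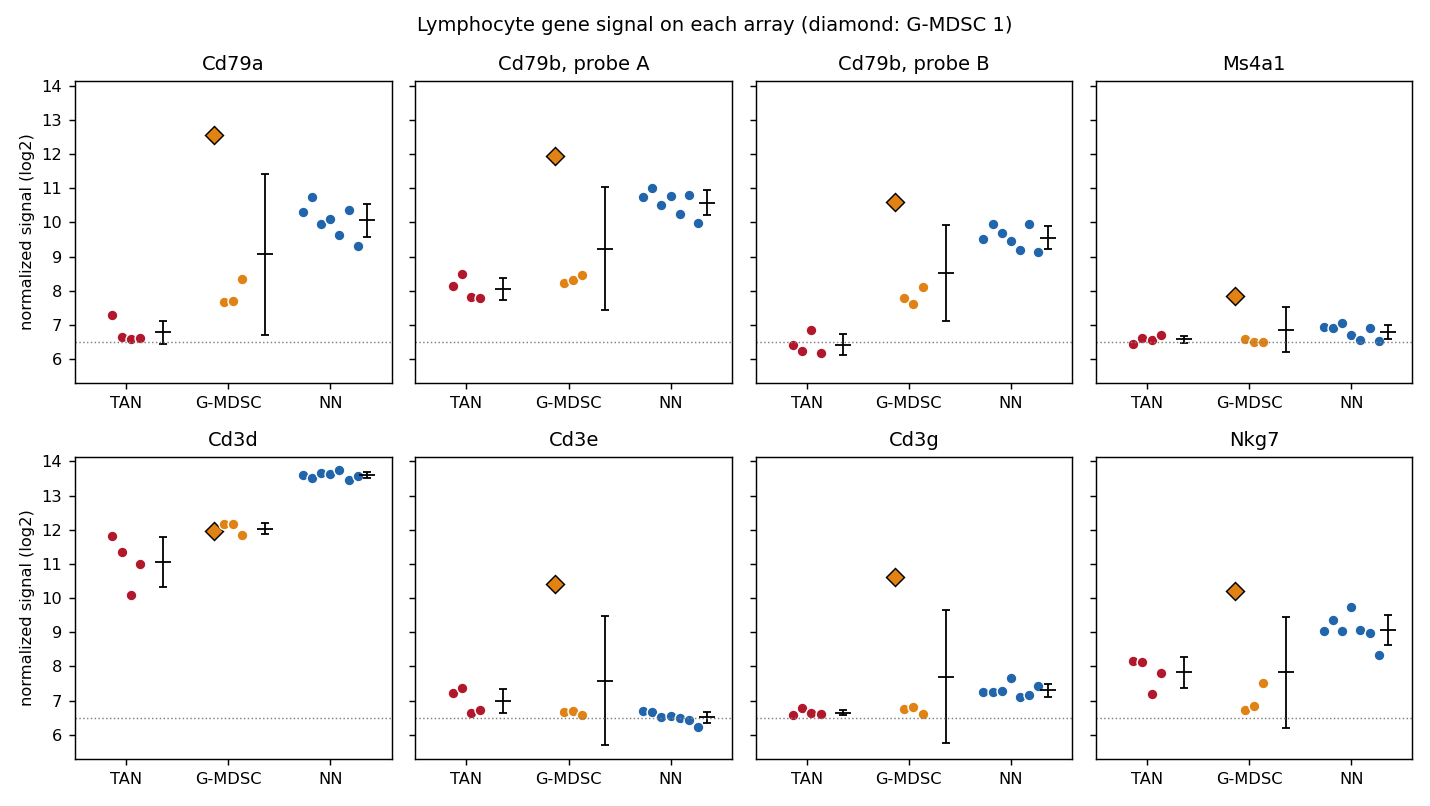
Normalized log2 signal of each lymphocyte probe on each array (y axis) for TAN, G-MDSC and NN (x axis). Each point is an array, the diamond is G-MDSC 1, black marks show the mean and SD of each population, and the dotted line is the mean background threshold of 6.49. G-MDSC 1 lies above all other arrays for every probe but that of Cd3d, where all NN arrays lie above it at 13.46 or more.

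Cd79a, which encodes the Ig-alpha chain of the B cell receptor, was lowest in TAN. Its signal was 7.28, 6.63, 6.58 and 6.63 on TAN 1 to TAN 4. On G-MDSC 1 to G-MDSC 4 it was 12.57, 7.66, 7.69 and 8.35, and in NN it had a lowest value of 9.32, a median of 10.11 and a highest of 10.73. G-MDSC 1 thus lay above every NN array, the other G-MDSC below every NN array, and TAN below both. Before any correction, the deposited signal of this probe was 7352 on G-MDSC 1 and 278 to 391 on the other G-MDSC arrays. The gene fell 9.72-fold in TAN compared with NN (log2 difference -3.28, SE 0.68, limma adjusted p = 0.00058) and 4.89-fold compared with G-MDSC (-2.29, SE 0.77, adjusted p = 0.0186). Between G-MDSC and NN the difference was -0.99 (SE 0.68, adjusted p = 0.278). Without G-MDSC 1, it was -2.16 (SE 0.26, adjusted p = 9.79e-06), and that of TAN from G-MDSC was -1.12 (SE 0.29, adjusted p = 0.004).

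Cd79b, which encodes the partner chain Ig-beta, had 2 probes. On probe A, the brighter, the signal was 8.15, 8.49, 7.82 and 7.80 on TAN 1 to TAN 4 and 11.93, 8.24, 8.30 and 8.45 on G-MDSC 1 to G-MDSC 4. In NN it was 9.98 at the lowest, 10.74 at the median and 11 at the highest. On probe B it was 6.40, 6.25, 6.85 and 6.17 on TAN 1 to TAN 4, 10.61, 7.80, 7.60 and 8.10 on G-MDSC 1 to G-MDSC 4, and 9.14, 9.51 and 9.97 at the lowest, median and highest of NN. Both probes placed G-MDSC 1 above all NN, and both placed the other G-MDSC and all TAN below all NN. They parted over TAN and G-MDSC, which overlapped on probe A but not on probe B, where only TAN 3 was above background among TAN. Cd79b fell in TAN compared with NN on probe A (log2 difference -2.52, SE 0.53, limma adjusted p = 0.000603) and on probe B (-3.14, SE 0.42, adjusted p = 8.16e-06). Compared with G-MDSC, the difference of TAN was -1.17 on probe A (SE 0.59, adjusted p = 0.103) and -2.11 on probe B (SE 0.47, adjusted p = 0.00137). That of G-MDSC from NN was -1.35 on probe A (SE 0.53, adjusted p = 0.0564) and -1.03 on probe B (SE 0.42, adjusted p = 0.0687). Without G-MDSC 1 these last values were -2.25 (adjusted p = 3.69e-07) and -1.72 (adjusted p = 5.45e-06).

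Ms4a1, which encodes the mature B cell antigen CD20, stayed near background on most arrays. Its signal was 6.46, 6.62, 6.56 and 6.69 on TAN 1 to TAN 4, 7.84, 6.59, 6.51 and 6.51 on G-MDSC 1 to G-MDSC 4, and 6.54, 6.90 and 7.05 at the lowest, median and highest of NN. Only G-MDSC 1 stood clear of the rest. No comparison of Ms4a1 passed the test, with log2 differences of -0.22 for TAN from NN (SE 0.21, adjusted p = 0.378), -0.28 for TAN from G-MDSC (SE 0.23, adjusted p = 0.314) and 0.06 for G-MDSC from NN (SE 0.21, adjusted p = 0.84).

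The bases before the start site of Cd79a are shown because this gene carries the B cell pattern and because its promoter holds matches to some of the motifs searched. The gene lies at chr7:24897497-24901858 in GRCm38.p6, and the 250 bases from chr7:24897247-24897496 on the forward strand, from RefSeq, read as follows, with motif matches in capitals.
Cd79a: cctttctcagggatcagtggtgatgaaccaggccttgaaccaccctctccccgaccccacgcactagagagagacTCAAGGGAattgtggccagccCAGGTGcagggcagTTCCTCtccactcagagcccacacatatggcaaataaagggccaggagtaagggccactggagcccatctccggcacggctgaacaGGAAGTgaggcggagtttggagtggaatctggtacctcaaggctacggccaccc
The motifs were searched on both strands. Early B cell factor (EBF) binds letters such as TCNNGGGA, which 15.1% of all 32851 RefSeq windows of 250 bases held. For the Ets family, the core GGAAGT was found in 19.7% of the windows. A further Ets core, written GAGGAA and able to overlap the first, was found in 23.3% of them. The E-box letters CAGGTG occurred in 17.2%, and the C/EBP letters TTGCNNAA in 9.56%. Cd79a had 1 match to each of the EBF, E-box and Ets motifs and none to that of C/EBP. Such matches describe the letters of the window and are no evidence of binding. For Cd79b and Ms4a1 no promoter sequence was used here.

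Part of a wider list of B cell genes fell along with Cd79a in TAN. Of 15 further B cell genes measured, 6 fell and 1 rose in TAN compared with NN, where 26.2% of all named genes fell and 36.8% rose. Without G-MDSC 1, or without TAN 3, Cd22 was added to those that rose. Without G-MDSC 1, 7 fell, with Spib added (-0.32, SE 0.12, limma adjusted p = 0.0353), against 26.8% of all named genes. The list median was -0.22 and that of all genes 0.12. Ltb, which encodes lymphotoxin beta, had 6.36, 6.55, 12.38 and 6.59 on TAN 1 to TAN 4, against 12.84 to 13.35 in NN. TAN 3 was thus close to NN and the other TAN arrays were near background. Ltb fell by 5.13 in TAN (SE 0.82, limma adjusted p = 4.96e-05), and by 6.60 without TAN 3 (SE 0.14, adjusted p = 8.81e-16). Fcmr, the receptor for the Fc part of IgM, fell by 4.03 (SE 0.67, adjusted p = 7.43e-05), and Fcrla, an Fc receptor-like protein of B cells, fell by 2.58 (SE 0.53, adjusted p = 0.000477). Pou2af1, a B cell transcriptional coactivator, Blk, a Src family kinase, and Tnfrsf13c, the receptor for the survival factor BAFF, were not above background on any TAN array. They were at least 6.23-fold, 3.23-fold and 2.87-fold lower in TAN than in NN, where the bound sets the NN mean against the lowest signal above background of each TAN array, averaged (adjusted p = 0.000227, 0.00173 and 0.00665). Cd180, a Toll-like receptor relative that B cells share with myeloid cells, rose by 1.32 (SE 0.10, adjusted p = 1.51e-08).

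Compared with G-MDSC, 8 of the 15 B cell genes fell in TAN and 1 rose, against 22.6% and 36.4% of all named genes. Fcmr fell by 3.31 (SE 0.76, limma adjusted p = 0.00156) and Ltb fell by 5.45 (SE 0.92, adjusted p = 0.000136). Without TAN 3, Cd37 and Fcer2a, both B cell surface proteins, were no longer called (adjusted p = 0.128 and 0.0652). Without G-MDSC 1, 7 fell and 2 rose, with Cd22 added to those that rose, against 22.5% and 36.6% of all named genes. In G-MDSC compared with NN, where 19.7% of all named genes fell and 18.3% rose, 1 of the 15 fell, Fcrla by 1.63 (SE 0.53, adjusted p = 0.0235), and 2 rose, Cd180 by 0.58 (SE 0.10, adjusted p = 0.000288) and H2-Ob, a chain of an MHC class II chaperone of B cells, by 0.42 (SE 0.15, adjusted p = 0.0324). Without TAN 3, 1 fell and 5 rose, with Cd37, Fcer2a and Ltb added. Without G-MDSC 1 the count was 5 lower and 1 higher, with Fcmr, Pou2af1, Tnfrsf13c and Blk added to the genes that fell and H2-Ob no longer called. On G-MDSC 1, 10 of the 15 genes exceeded the average of G-MDSC 2 to G-MDSC 4 by over 2-fold. Fcmr had 13.29 on G-MDSC 1 and 8.36 to 8.98 on the other G-MDSC arrays, with 6.34 to 6.60 in TAN and 9.92 to 10.92 in NN. Ltb went against this order, with 13.10 on G-MDSC 1 and 13.33 to 13.62 on the other G-MDSC arrays. Cd37 differed little, with 11.79 on G-MDSC 1 and 11.44 to 11.72 on the other G-MDSC arrays. Both are among the B cell genes counted as lower in TAN than in G-MDSC with all arrays.

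Genes of marrow B cell precursors were mixed on G-MDSC 1. The mean log2 signal of the 7 measured was 7.72 on G-MDSC 1 and 6.62 to 6.78 on the other G-MDSC arrays, against 7.38 to 8.23 in NN. Vpreb1, which encodes a chain of the surrogate light chain, had 6.41, 6.56, 6.32 and 6.65 on TAN 1 to TAN 4 and 6.82, 6.60, 6.72 and 6.52 on G-MDSC 1 to G-MDSC 4, against 7.79, 8.14 and 9.57 at the lowest, median and highest of NN. Every NN array lay above every TAN and G-MDSC array, G-MDSC 1 included. Vpreb1 fell by 2.06 in TAN compared with NN (SE 0.31, limma adjusted p = 2.67e-05) and by 1.88 in G-MDSC (SE 0.31, adjusted p = 0.00015). Vpreb3, a relative that mature B cells express too, had 6.28, 6.33, 6.23 and 6.31 on TAN 1 to TAN 4, 9.65, 6.43, 6.53 and 6.84 on G-MDSC 1 to G-MDSC 4, and 9.43 to 10.97 in NN. For Vpreb3, then, G-MDSC 1 lay within the NN range. It lay above all NN for Il7r (10.20, against at most 8.47 in NN) and for Lef1, a transcription factor of T cells too (6.95, against at most 6.55). Vpreb3 was at least 11.03-fold lower in TAN than in NN (adjusted p = 7.44e-06), and fell by 2.63 in G-MDSC (SE 0.49, adjusted p = 0.000486). Within NN, NN 2 had the highest and NN 7 the lowest signal of Cd79a, Vpreb1 and Vpreb3 alike.

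Of the 7 precursor genes measured, 3 fell and 2 rose in TAN compared with NN (26.2% and 36.8% of all named genes), and 4 fell and none rose in G-MDSC compared with NN (19.7% and 18.3% of all), by limma. Without TAN 3, 2 fell in TAN, and without G-MDSC 1, 3 fell in G-MDSC. The 2 that rose in TAN are not confined to B cell precursors. They were Il7r, the receptor for interleukin 7, which T cells carry too (1.58, SE 0.51, adjusted p = 0.0143), and Cd93, a surface protein that myeloid and endothelial cells also carry (1.59, SE 0.14, adjusted p = 5.87e-08). Rag1, which rearranges antigen receptor genes, was not above background on any TAN or G-MDSC array and was at least 1.19-fold lower in TAN (adjusted p = 0.0449, and 0.0896 without TAN 3) and 1.21-fold lower in G-MDSC (adjusted p = 0.0356, and 0.0652 without G-MDSC 1) than in NN. Of 6 plasma cell genes, Mzb1, an endoplasmic reticulum protein of B and plasma cells, was at least 6.29-fold lower in TAN than in NN (adjusted p = 0.000345). Xbp1, a secretory pathway regulator of many cell types, rose by 2.44 in TAN (SE 0.09, adjusted p = 3.04e-12) and by 0.77 in G-MDSC (SE 0.09, adjusted p = 4.79e-06).

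**Figure D2:**
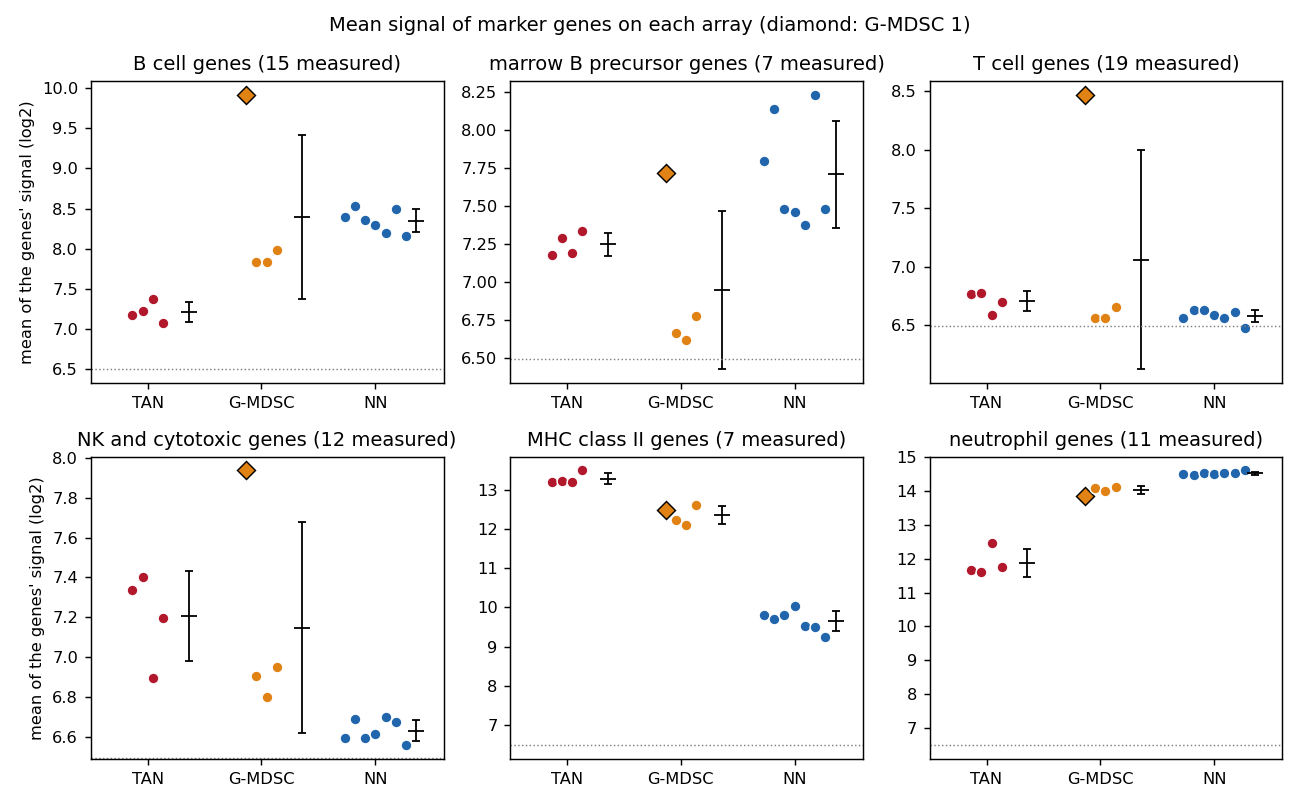
Mean log2 signal of the measured genes of 6 marker lists on each array (y axis) for TAN, G-MDSC and NN (x axis). Points are arrays, the diamond is G-MDSC 1, black marks show mean and SD, and the dotted line is the mean background threshold of 6.49. G-MDSC 1 is highest for B cell (9.92), T cell (8.47) and NK and cytotoxic genes (7.94) but has the lowest neutrophil mean of the G-MDSC arrays (13.87), and MHC class II genes run from TAN down to NN.

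Antigen presentation genes, which B cells share with macrophages and dendritic cells, were higher in both tumor populations. All 7 genes measured encode MHC class II chains, their partners or the regulator Ciita. By limma, all 7 rose in TAN and in G-MDSC compared with NN, against 36.8% and 18.3% of all named genes. The invariant chain gene Cd74 rose by 3.01 in TAN (SE 0.27, limma adjusted p = 7.9e-08) and by 2.64 in G-MDSC (SE 0.27, adjusted p = 9.04e-07). None of the 7 was over 2-fold higher in G-MDSC 1 than in the other G-MDSC. B cell receptor signalling genes, most of which myeloid cells use as well, were mixed. Of 10 measured, 2 rose and 6 fell in TAN compared with NN (36.8% and 26.2% of all named genes). In G-MDSC compared with NN, 4 rose and 2 fell (18.3% and 19.7%), or 5 and 3 without G-MDSC 1 and 5 and 2 without TAN 3. Among them, Blnk, an adaptor downstream of the B cell receptor, fell by 0.69 in TAN (SE 0.22, adjusted p = 0.0133), Btk, a kinase of the same pathway, fell by 0.80 (SE 0.11, adjusted p = 9.28e-06) and Vav1, a guanine nucleotide exchange factor, rose by 0.95 (SE 0.12, adjusted p = 3.38e-06).

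The 3 CD3 genes did not move together. Cd3d, which encodes CD3 delta, was far above background on every array. Its values come from 1 probe, whose sequence was not used here, so that binding of other transcripts to it was not tested and each Cd3d value is that of the probe. Its signal was 11.81, 11.36, 10.09 and 11.01 on TAN 1 to TAN 4, 11.96, 12.16, 12.16 and 11.85 on G-MDSC 1 to G-MDSC 4, and 13.46, 13.60 and 13.74 at the lowest, median and highest of NN. The 3 populations did not overlap, and G-MDSC 1 lay within the other G-MDSC arrays. Cd3d fell 5.80-fold in TAN compared with NN (log2 difference -2.54, SE 0.22, limma adjusted p = 5.16e-08), 1.96-fold in TAN compared with G-MDSC (-0.97, SE 0.24, adjusted p = 0.00314) and 2.96-fold in G-MDSC compared with NN (-1.57, SE 0.22, adjusted p = 2.68e-05). In each of the 3 comparisons it kept its direction and its call under every alternative tried, and without G-MDSC 1 its differences were -2.54, -0.99 and -1.54 in the same order.

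Cd3e, which encodes CD3 epsilon, showed another pattern. Its signal was 7.22, 7.37, 6.64 and 6.72 on TAN 1 to TAN 4, 10.43, 6.65, 6.69 and 6.58 on G-MDSC 1 to G-MDSC 4, and 6.22, 6.53 and 6.70 at the lowest, median and highest of NN. G-MDSC 1 stood 13.8-fold above the average of G-MDSC 2 to G-MDSC 4, and 5 of 7 NN were above background. The gene did not pass the test in any comparison, with differences of 0.48 for TAN from NN (SE 0.54, adjusted p = 0.463), -0.60 for TAN from G-MDSC (SE 0.61, adjusted p = 0.409) and 1.08 for G-MDSC from NN (SE 0.54, adjusted p = 0.134). Without G-MDSC 1 it rose by 0.48 in TAN compared with NN (SE 0.14, adjusted p = 0.0067), with TAN 1 and TAN 2 above all NN and TAN 3 and TAN 4 within or just above the NN range.

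Cd3g, which encodes CD3 gamma, resembled Cd3e in G-MDSC 1 but not elsewhere. Its signal was 6.57, 6.77, 6.65 and 6.61 on TAN 1 to TAN 4, 10.61, 6.74, 6.81 and 6.61 on G-MDSC 1 to G-MDSC 4, and 7.09, 7.24 and 7.67 at the lowest, median and highest of NN. All NN arrays lay above all TAN arrays and above G-MDSC 2 to G-MDSC 4. The differences were -0.65 for TAN from NN (SE 0.55, limma adjusted p = 0.319), -1.04 for TAN from G-MDSC (SE 0.62, adjusted p = 0.157) and 0.39 for G-MDSC from NN (SE 0.55, adjusted p = 0.608). Without G-MDSC 1, Cd3g fell in TAN compared with NN (-0.65, SE 0.11, adjusted p = 6.48e-05), and the sign between G-MDSC and NN turned (-0.58, SE 0.12, adjusted p = 0.000976).

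**Figure D3:**
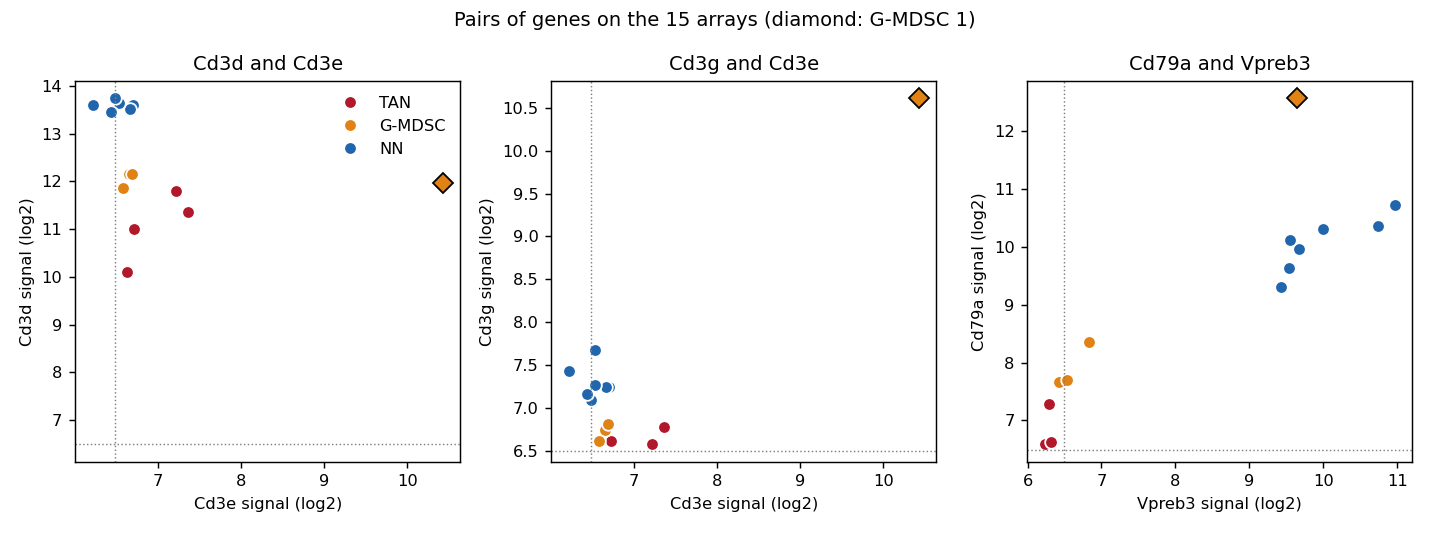
Signals of pairs of genes on the 15 arrays, in log2 on both axes, with the 3 populations in color, G-MDSC 1 as a diamond and the mean background threshold of 6.49 as dotted lines. G-MDSC 1 stands apart along Cd3e (10.43) and Cd3g (10.61) but not along Cd3d (11.96), and it lies above the NN arrays for Cd79a (12.57) at a Vpreb3 signal (9.65) within their range.

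The CD3 genes lie side by side within 40.1 kb of chromosome 9, and the bases around their start sites are shown because the pattern of Cd3d differed from that of its neighbors. In GRCm38.p6, Cd3g is at chr9:44969572-44980431, Cd3d at chr9:44981769-44987052 and Cd3e at chr9:44998735-45009663. The Cd3g and Cd3d genes are transcribed away from each other from starts 1338 bp apart. The RefSeq bases before each start site of the sequence table are those of chr9:44981536-44981785 on the forward strand for Cd3d, and of chr9:45009612-45009861 and chr9:44980432-44980681 on the reverse strand for Cd3e and Cd3g. By the gene bounds above, the last 17 bases for Cd3d and the last 52 for Cd3e lie inside the gene. Each is written 5′ to 3′ on the gene's strand, with matches to the same motifs in capitals.
Cd3d: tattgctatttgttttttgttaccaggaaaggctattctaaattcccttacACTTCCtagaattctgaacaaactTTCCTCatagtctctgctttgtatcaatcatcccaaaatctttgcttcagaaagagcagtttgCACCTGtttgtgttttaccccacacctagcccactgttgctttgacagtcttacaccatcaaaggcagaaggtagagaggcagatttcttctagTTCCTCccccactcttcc
Cd3e: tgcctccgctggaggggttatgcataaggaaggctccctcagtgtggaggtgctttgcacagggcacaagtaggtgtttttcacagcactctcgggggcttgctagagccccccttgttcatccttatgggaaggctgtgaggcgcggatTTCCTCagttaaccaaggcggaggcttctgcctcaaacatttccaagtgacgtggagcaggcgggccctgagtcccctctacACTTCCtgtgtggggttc
Cd3g: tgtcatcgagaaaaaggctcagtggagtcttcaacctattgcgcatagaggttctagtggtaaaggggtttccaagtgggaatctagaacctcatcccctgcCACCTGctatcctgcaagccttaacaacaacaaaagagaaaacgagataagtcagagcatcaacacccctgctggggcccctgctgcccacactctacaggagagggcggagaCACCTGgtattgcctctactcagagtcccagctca
Cd3d had 1 match to the first Ets core, 2 to the further Ets core and 1 to the E-box letters. Cd3e had 1 match to each Ets core, and Cd3g had 2 to the E-box letters and none to either Ets core. None of the 3 windows held the EBF or C/EBP letters, which says only that these letters are not there.

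Other T cell genes marked G-MDSC 1 as Cd3e and Cd3g did. Of 19 measured, 18 were above background on G-MDSC 1, against 8 to 11 on the TAN arrays, 8 to 12 on the other G-MDSC arrays and 6 to 12 on the NN arrays. There, 14 of the 19 exceeded the mean of the other G-MDSC by over 2-fold. Thy1, a surface glycoprotein of mouse T cells, had 11.04 on G-MDSC 1 and 6.07 to 6.87 on the other G-MDSC arrays, with 7.61 to 8.49 in TAN and 6.52 to 6.84 in NN. Cd2, an adhesion receptor of T and NK cells, had 9.39 on G-MDSC 1 and 6.72 to 7.01 on the other G-MDSC arrays. Bcl11b, a factor of T cell commitment, and Cd8b1, the beta chain of the CD8 coreceptor, were chosen after their values were seen. Bcl11b had 9.64 on G-MDSC 1 and at most 6.33 on every other array, and Cd8b1 had 10.81 on G-MDSC 1 and at most 7.32 on every other array.

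Across the populations, few T cell genes passed the test. Of the 19, 2 rose and 1 fell in TAN compared with NN (limma), against 36.8% and 26.2% of all named genes, and 3 rose and 1 fell in G-MDSC compared with NN, against 18.3% and 19.7%. In TAN compared with G-MDSC, 4 fell and none rose, against 22.6% and 36.4%. Without G-MDSC 1, 3 fell in TAN and 2 in G-MDSC compared with NN (26.8% and 19.5% of all genes). In TAN compared with G-MDSC, 4 then rose and 2 fell (36.6% and 22.5%). Without TAN 3, 3 rose in TAN and 4 in G-MDSC compared with NN, and 3 fell in TAN compared with G-MDSC. Thy1 rose by 1.56 in TAN (SE 0.65, adjusted p = 0.0465) and Ccr7, a homing receptor of lymphocytes and dendritic cells, by 0.996 (SE 0.34, adjusted p = 0.0197). Ubash3a, a suppressor of T cell receptor signalling, was not above background on any TAN array and was at least 1.33-fold lower than in NN (adjusted p = 5.29e-06). In G-MDSC, Cd6, a surface receptor of T cells, rose by 1.46 (SE 0.32, adjusted p = 0.00167), Cd5 was at least 1.23-fold higher than in NN, where no array was above background (adjusted p = 0.0245), and Cd4 rose by 0.57 (SE 0.17, adjusted p = 0.0163), while Ubash3a fell by 0.47 (SE 0.09, adjusted p = 0.000646). The bound of Cd5 rests on G-MDSC 1, where its signal was 7.70, against 6.37 to 6.51 on the other G-MDSC arrays. Without G-MDSC 1 the G-MDSC differences of Cd6, Cd4 and Cd5 were 1.08 (adjusted p = 0.00494), 0.31 (adjusted p = 0.0349) and 0.29 (adjusted p = 0.047). Of 11 T cell receptor signalling genes, 2 rose and 3 fell in TAN and 4 rose and 1 fell in G-MDSC, each compared with NN and against the same shares of all genes. In G-MDSC, 3 fell without G-MDSC 1, with Lat and Prkcq added, and 2 without TAN 3. In TAN, 4 fell without G-MDSC 1. Lcp2, the adaptor SLP-76 that myeloid cells also use, rose by 1.05 in TAN (SE 0.15, adjusted p = 1.77e-05) and by 1.27 in G-MDSC (SE 0.15, adjusted p = 6.06e-06).

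Nkg7, which encodes a granule membrane protein of NK and cytotoxic T cells, was above background on all 15 arrays. Its signal was 8.16, 8.13, 7.19 and 7.81 on TAN 1 to TAN 4, 10.21, 6.72, 6.85 and 7.53 on G-MDSC 1 to G-MDSC 4, and 8.32, 9.04 and 9.75 at the lowest, median and highest of NN. All NN arrays lay above all TAN arrays and above the G-MDSC arrays other than G-MDSC 1. Nkg7 fell 2.38-fold in TAN compared with NN (log2 difference -1.25, SE 0.50, limma adjusted p = 0.0394), a call kept in 15 of 28 alternatives and lost without TAN 3 (-1.04, adjusted p = 0.0929). In G-MDSC compared with NN, the difference was -1.25 (SE 0.50, adjusted p = 0.0619), and -2.04 without G-MDSC 1 (SE 0.27, adjusted p = 2.18e-05). TAN and G-MDSC differed by 0.00 (SE 0.56, adjusted p = 0.997), and without G-MDSC 1 Nkg7 rose by 0.79 in TAN compared with G-MDSC (SE 0.30, adjusted p = 0.0331).

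Of 12 other NK and cytotoxic genes measured, 4 rose and none fell in TAN compared with NN (limma), against 36.8% and 26.2% of all named genes. In G-MDSC compared with NN, 2 rose and none fell, against 18.3% and 19.7% of all genes. The shares that rose were thus no larger than those of all genes. Without G-MDSC 1, 7 rose in TAN compared with NN (37.3% of all genes), with Klre1, Ifng and Ctsw added, and 4 rose in TAN compared with G-MDSC (36.6% of all genes), where with all arrays limma called none, and none had an unadjusted p under 0.05. Prf1, which encodes perforin, had 12.67, 12.39, 9.34 and 11.56 on TAN 1 to TAN 4, against 9.10 to 9.82 in NN. TAN 3 lay within the NN range and the other TAN arrays above it. Prf1 rose by 2.07 in TAN (SE 0.47, adjusted p = 0.00109), and by 2.79 without TAN 3 (SE 0.27, adjusted p = 9.29e-08). Leaving out TAN 3 also added Prf1 to the genes that rose in the other comparisons. It then rose by 1.74 in TAN compared with G-MDSC (SE 0.30, adjusted p = 8.4e-05) and by 1.05 in G-MDSC compared with NN (SE 0.24, adjusted p = 0.0021). Klrd1, the NK receptor chain CD94, rose by 1.90 in TAN (SE 0.34, adjusted p = 0.000154) and by 1.78 in G-MDSC (SE 0.34, adjusted p = 0.000617), and Klrk1, the receptor NKG2D, by 0.60 and 0.68 (SE 0.12 each, adjusted p = 0.000473 and 0.000372). Klrd1 had 10.07 on G-MDSC 1 and 7.77 to 8.17 on the other G-MDSC arrays, and without G-MDSC 1 it rose by 1.24 in G-MDSC (adjusted p = 8.94e-05). Tbx21, the lymphocyte transcription factor T-bet, was at least 1.19-fold higher in TAN than in NN, where no array was above background (adjusted p = 0.0112).

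Counted over the measured members, 4 of 7 genes fell in TAN compared with NN and none rose, namely Cd79a, Cd79b, Cd3d and Nkg7. Among all 11075 named genes the same comparison called 63.0%, of which those that fell were 26.2% of the genes tested. TAN compared with G-MDSC gave 2 of 7, Cd79a and Cd3d, both lower, against 59.0% called and 22.6% lower among all genes. G-MDSC compared with NN gave 1 of 7, Cd3d, lower, against 38.0% called and 19.7% lower. The TAN and NN arrays did not overlap for 5 of the 7, all lower in TAN, where 19.2% of all genes did so. TAN lay below G-MDSC without overlap for 2 of 7 (16.4% of all genes), and G-MDSC below NN for 1 of 7 (17.1%). In all 3 comparisons the share of members called in either direction was no larger than that of all genes. The comparisons with NN share the same NN arrays.

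Leaving out G-MDSC 1 changed these counts to 6 of 7 for TAN from NN, of which Cd3e rose and the other 5 fell, against 64.1% of all genes called and 26.8% lower. In G-MDSC compared with NN, 5 of 7 then fell, namely Cd79a, Cd79b, Cd3d, Cd3g and Nkg7, against 37.5% of all genes called and 19.5% lower. TAN from G-MDSC gave 3 of 7, Cd79a and Cd3d lower and Nkg7 higher, against 59.1% called and 22.5% lower. Within the arrays of low background (TAN and NN 1 to NN 5) 6 of 7 were called between TAN and NN, against 58.2% of all genes, and within those of high background (G-MDSC, NN 6 and NN 7) 1 of 7 between G-MDSC and NN, against 29.2%. With background level as a block, Cd79a was no longer called between TAN and G-MDSC (-2.60, adjusted p = 0.129).

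**Figure D4:**
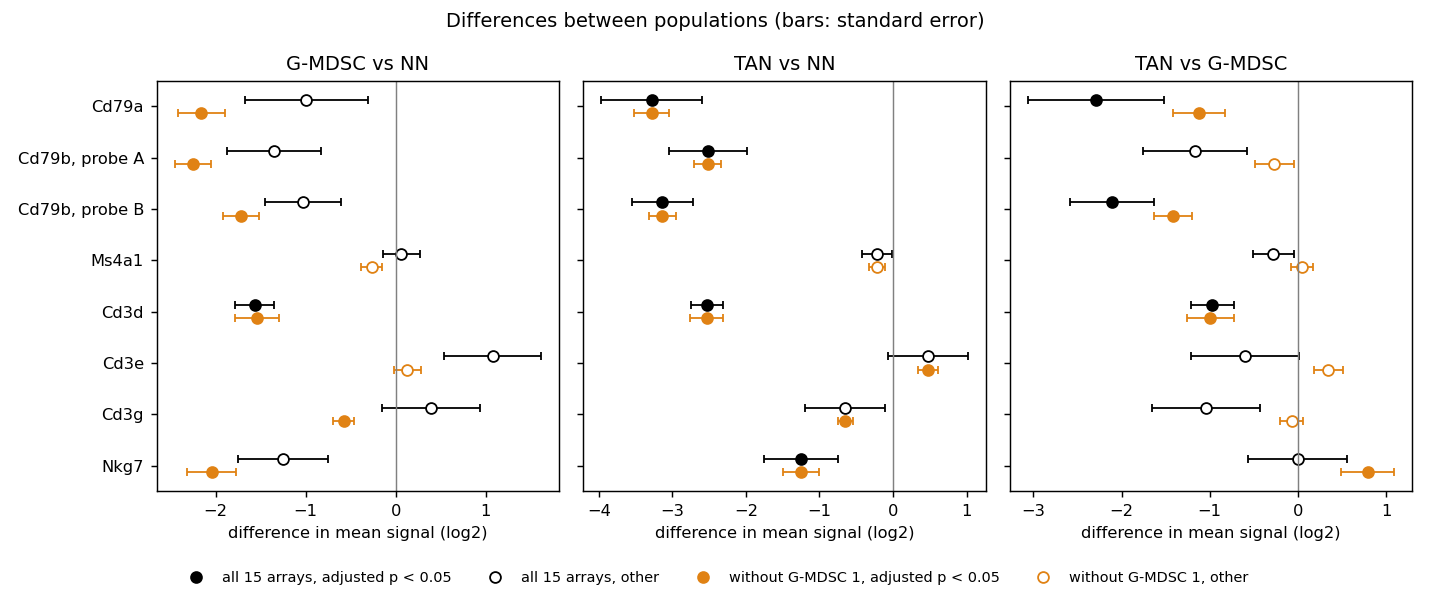
Log2 difference between population means for each lymphocyte probe (x axis, with standard error bars), using all 15 arrays (black) or all but G-MDSC 1 (orange), where filled points have a limma adjusted p under 0.05. Cd3d stays at -1.57 and -1.54 between G-MDSC and NN, whereas Cd79a moves to -2.16 without G-MDSC 1, against -0.99 with it.

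Among 7163 other genes above background on at least 1 array and ranging by at least 1 on the log2 scale, those most like the B cell members across the 15 arrays were Ly6d, Pou2af1, Ptprcap and Mzb1. Their Pearson r with the mean profile of Cd79a, Cd79b and Ms4a1 was 0.991, 0.985, 0.98 and 0.977. The mean profile of the 3 CD3 genes was most like Srpk3, Gimap8, Gimap1 and Klk1 (r of 0.967, 0.955, 0.936 and 0.934), and Nkg7 most like Rasal3, Cpa3, Trib2 and Gimap1 (0.932, 0.929, 0.921 and 0.918). Because the CD3 profiles differed, each was also taken alone, a choice made after their values were seen. Cd3d was then most like Sytl1 (0.989) and Zfp672 (0.986), Cd3e like Cd8b1 (0.987) and Scg5 (0.978), and Cd3g like Gimap8 (0.975) and Gimap6 (0.959). The arrays share their population and, for Cd3e and Cd3g, the single high array, so that these values describe the profiles only.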

How the data were processed

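RNA of 15 samples (4 TAN, 4 G-MDSC, 7 NN) was hybridized to Illumina bead arrays by the authors. The authors deposited for each array a signal intensity per probe, summarized in Bead Studio with no background subtraction or normalization, and a table of quantile-normalized signal intensity for 16322 probes. The files hold no detection p-value or control probe. The array files served as the source, and the table chose the probes and gave an alternative. Background was corrected with normexp (offset 50) on 25697 probes, and signals were taken to log2 and quantile-normalized (R 4.3.3, limma 3.58.1). Kept were 16316 probes of the table, and 6 were left out because no arrays differed by 1.2-fold. Genes were named from GEO's platform annotation, updated through RefSeq identifiers, and the brightest kept probe on average stood for a gene. A total of 995 kept probes had no symbol.

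One limma model over the 15 arrays gave all comparisons, with Benjamini-Hochberg adjustment over the kept probes and a threshold of 0.05. The fit recovered, for TAN against NN, 93 of 100 simulated probes changed by 1 and 100 of 100 changed by 2 on the log2 scale. It made 9 false calls in this simulation of 16316 probes. These rates describe the simulated probes, and recovery at the spread of the lymphocyte genes was not tested. For TAN from NN, the SE of Cd3g was 0.546 on all 15 arrays and 0.105 without G-MDSC 1. That of Cd3e was 0.538 and 0.136. The labels call the arrays replicates, and the study describes the samples as independent. The number of arrays limits the precision. Same-numbered arrays did not deviate together (r of -0.309 to 0.266), so that the numbers were not treated as pairs. No pair of arrays held identical values. Genes named beyond the members were at most 8 called genes per list and comparison, those with the largest differences, and the 4 most similar genes. The members and lists were chosen with earlier results of these data known. Alternatives covered background correction, normalization, filters, array weights, blocks and left-out arrays. Promoter sequences are from RefSeq, build GRCm38.p6.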

Additional observations from a re-analysis of the deposited data

Results flagged for a closer look

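In groups of 4 to 10 arrays, a value stood out where its gap to the nearest other array, divided by the range of the group, exceeded Dixon's 95% critical value, which chance passes for about 1 in 20 groups. G-MDSC 1 stood out as the highest G-MDSC array on 6 of the 8 lymphocyte probes. The ratio was 0.859 for Cd79a, 0.942 and 0.834 for probes A and B of Cd79b, 0.938 for Ms4a1, 0.971 for Cd3e and 0.95 for Cd3g. Over 59 further lymphocyte genes of the marker lists, 27 had such a value among G-MDSC, 26 of them on G-MDSC 1. Over all 11075 genes, 8.5% had one among G-MDSC, 699 of 941 on G-MDSC 1. TAN 1 stood out as the highest TAN array for Cd79a (0.929), at 7.28 against 6.58 to 6.63 on the other TAN arrays. No lymphocyte probe had such a value among NN.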

How the results depend on the processing

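Of 581 values of single genes and comparisons under the alternatives, 525 kept their direction and side of the threshold, 23 gained a call, 14 lost it and 19 turned. Cd79a, Cd79b and Cd3d kept their calls between TAN and NN throughout. The count of members called between G-MDSC and NN was 1, but 2 with plain background subtraction, 4 with array weights and 5 without G-MDSC 1 and TAN 3. Leaving out single arrays gave 1 to 5 (5 without G-MDSC 1, 3 without TAN 3 and 2 without NN 7). Between TAN and NN the count was 4, and 3 to 6 with single arrays left out. Between TAN and G-MDSC it was 2, 1 with background level as a block, 4 without G-MDSC 1 and TAN 3, and 2 to 3 with single arrays left out. The replicate block left the counts of members at 4, 2 and 1 (TAN from NN, TAN from G-MDSC and G-MDSC from NN) and called 8837, 9295 and 5701 probes in that order, against 10073, 9598 and 5954 without it. Probe calls were 9615 with array weights and 3941 with background level as a block between G-MDSC and NN, and 5419 with that block between TAN and G-MDSC. Between G-MDSC and NN, Ms4a1 turned to -0.15 with plain subtraction, -0.22 with array weights, -0.037 with the replicate block and -0.26 without G-MDSC 1 and TAN 3, with -0.26 to 0.18 over single arrays left out. Cd3g turned to -0.39 with array weights and -0.58 without both arrays, with -0.58 to 0.76. Between TAN and G-MDSC, Ms4a1 turned to 0.053 without both, with -0.40 to 0.045 over single arrays. Cd3e turned to 0.44 with array weights and 0.46 without both (adjusted p = 0.0125), with -0.94 to 0.35. Nkg7 turned to 0.39 with plain subtraction, 1.0 with array weights (adjusted p = 0.00695) and 1.0 without both (adjusted p = 0.0029), with -0.37 to 0.79. These values turned when G-MDSC 1 was left out or weighted down, and Nkg7 also when TAN 3 or TAN 4 alone was left out. The cause under plain subtraction and the replicate block was not tested.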
